A study of Mus musculus with 9 samples.

Results

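Adgrg5 and Ccdc102a are neighbouring genes on mouse chromosome 8 that were both much lower in thymocytes labelled as SRSF1 knockout (SRSF1KO). Their surroundings were examined to see whether the genes next to them were lower too. The set held 9 genes, namely Adgrg5, Ccdc102a, Adgrg1, Adgrg3, Kifc3, Dok4, Polr2c, Coq9 and Ciapin1, of 53715 genes in the deposited count table. Adgrg5 and Ccdc102a were chosen for their fall in the comparison of SRSF1KO with WT, so their values are given as a description with no test. The other 7 were chosen by position. All 9 passed the filter on low counts that left 17351 genes for testing.

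SRSF1 is a serine/arginine-rich RNA-binding protein with roles in splicing of pre-mRNA. The 2 SRSF1KO samples carried the genotype Srsf1fl/flLckcre/+, in which Cre recombinase made from the T lineage gene Lck deletes the floxed Srsf1 alleles, and the 3 reference samples were labelled WT. The labels do not say which Lck promoter drives Cre, or whether WT mice carried floxed alleles or Cre. Both groups were C57BL/6 thymocytes of mice aged 6 to 8 weeks, sorted as positive for CD4, CD8, CD24, CD69 and TCRβ, which takes double-positive cells after receptor signalling. Bulk RNA-seq libraries were made by Smart-seq2, which amplifies full-length cDNA and keeps no strand, so reads from overlapping genes cannot be told apart. The labels do not tie the samples of a group to different mice, and each p-value reflects the spread among these 5 libraries. Counts of Ddx3y, the only Y-linked gene read, followed a male and a female pattern within each group. They were 5699 and 84 in SRSF1KO replicates 1 and 2, and 23, 5803 and 141 in WT replicates 1, 2 and 3. By this gene the SRSF1KO libraries did not come from the same mouse. Nor did WT replicate 2 share a mouse with WT replicates 1 and 3. Whether WT replicates 1 and 3 came from separate mice is not given. Each library held 36026006 to 38985285 counts. Srsf1, the targeted gene, stood at 42.6 and 30.9 CPM (read counts scaled to a common library size after TMM normalisation) in SRSF1KO replicates 1 and 2, against 96.9, 122.7 and 103.1 CPM in WT replicates 1, 2 and 3, so the libraries labelled SRSF1KO kept 34.2% of its WT level.

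Adgrg1, Adgrg3 and Adgrg5 encode adhesion G protein-coupled receptors. Receptors of this family have a large extracellular part that is cut from the membrane part at a site next to the membrane, and a short stretch behind that site, the tethered agonist, can switch the receptor on. In humans the counterpart of Adgrg1 is a surface marker of cytotoxic lymphocytes. Ccdc102a encodes a coiled-coil protein. The other members are Polr2c, a core subunit of RNA polymerase II, Coq9, a lipid-binding protein of coenzyme Q synthesis, Ciapin1, an assembly factor for cytosolic iron-sulfur proteins, Dok4, a docking adaptor of receptor tyrosine kinases, and Kifc3, a minus-end-directed kinesin.

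The promoters of Ccdc102a and Adgrg5 are shown because these genes moved together and point away from each other. RefSeq (GRCm38.p6) had promoter windows for 7 of the 9 members, and the 250 bases before the start site are printed here. Ccdc102a is read from the minus strand and Adgrg5 from the plus strand, and 5595 bases lie between the start sites used. That start site of Adgrg5 lies inside the annotated gene, which begins further upstream. Capitals mark matches, on either strand, to GGGCGG (the core bound by Sp and KLF factors, also as CCGCCC) or to TGTGGT (the core bound by RUNX factors, also as ACCACA).
Ccdc102a, chr8:94918099-94918348, minus strand: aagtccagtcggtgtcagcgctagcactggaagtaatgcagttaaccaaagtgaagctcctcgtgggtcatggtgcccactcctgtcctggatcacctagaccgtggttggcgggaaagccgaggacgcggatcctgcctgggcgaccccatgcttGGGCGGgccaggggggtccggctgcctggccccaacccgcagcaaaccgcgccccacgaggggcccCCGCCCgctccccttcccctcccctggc
Adgrg5, chr8:94923444-94923693, plus strand: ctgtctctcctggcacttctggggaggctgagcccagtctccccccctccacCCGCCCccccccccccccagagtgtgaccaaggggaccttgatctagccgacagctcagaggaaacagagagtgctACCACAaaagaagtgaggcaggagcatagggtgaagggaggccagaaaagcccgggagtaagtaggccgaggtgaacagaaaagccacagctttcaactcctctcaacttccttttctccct
The windows differ in base composition. That of Ccdc102a is 67.6% G or C with 17 CpG dinucleotides, and that of Adgrg5 is 58.8% G or C with 4, against medians of 52.4% and 6 over all 32851 RefSeq windows. The GGGCGG motif occurs in both, as it does in 32.7% of all windows. The TGTGGT motif occurs in the Adgrg5 window, 122 bases before the start, as in 14% of all windows. Of the other motifs searched on both strands, CCGGAA (ETS factors), CAGCTG (E-box), the interferon response element, TTCNNNGAA (STAT factors) and TGANTCA (AP-1), none was found in these 2 windows. They occur in 12%, 13%, 2.98%, 7.02% and 6.75% of all windows. A second divergent pair among the members, Ciapin1 and Coq9, has only 72 bases between the start sites used, from which both genes read outward. The start site used for Ciapin1 also lies inside its annotated gene, which covers this stretch and overlaps Coq9 by 418 bases.
Ciapin1 and Coq9, chr8:94838341-94838412, plus strand: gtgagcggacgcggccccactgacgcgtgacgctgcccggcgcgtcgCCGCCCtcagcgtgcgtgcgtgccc

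Adgrg5 and Ccdc102a were both several-fold lower in SRSF1KO, and more so in replicate 1 than in replicate 2. Adgrg5 (ENSMUSG00000061577.12, chr8:94921811-94943293, GRCm38) stood at 13.0 and 24.1 CPM in SRSF1KO replicates 1 and 2, against 89.8, 84.6 and 94.2 CPM in WT replicates 1, 2 and 3. Every SRSF1KO library lay below every WT library, and the WT libraries lay close together. The counts behind these levels were 469 and 860 in SRSF1KO and 3399, 3079 and 3626 in WT. The mean was 18.5 ± 7.81 CPM in SRSF1KO (SD, n = 2) and 89.5 ± 4.78 CPM in WT (SD, n = 3). On the log2 scale the difference was −2.27 ± 0.27 (SE), and SRSF1KO held 20.7% of the WT level.

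Ccdc102a (ENSMUSG00000063605.5, chr8:94902869-94918098) had 2.39 and 5.57 CPM in SRSF1KO replicates 1 and 2, against 33.9, 28.6 and 36.6 CPM in WT replicates 1, 2 and 3. These levels rest on 86 and 199 counts in SRSF1KO and 1283, 1040 and 1411 counts in WT, and again the groups did not overlap. The means were 3.98 ± 2.25 CPM in SRSF1KO (SD, n = 2) and 33.0 ± 4.1 CPM in WT (SD, n = 3). The log2 difference was −3.05 ± 0.39 (SE), and SRSF1KO held 12% of the WT level. The drop of Ccdc102a was the deeper one in each library: the log2 ratio of Adgrg5 to Ccdc102a was 2.45 and 2.11 in SRSF1KO, against 1.41, 1.57 and 1.36 in WT. In bulk samples fewer cells that express a gene and less RNA per cell cannot be told apart. Adgrg5 and Ccdc102a are the only 2 of the 9 members among the 46 genes called over all genes (edgeR, adjusted p under 0.05), which make up 0.265% of those tested (0.213% called lower and 0.0519% higher), and since this comparison chose them nothing is read from it. With any one of the WT libraries left out edgeR called 0 of all genes (1903, 2005 and 2079 had an unadjusted p under 0.05), while the log2 fold change stayed between −2.31 and −2.22 for Adgrg5 and between −3.15 and −2.96 for Ccdc102a.

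**Figure D1:**
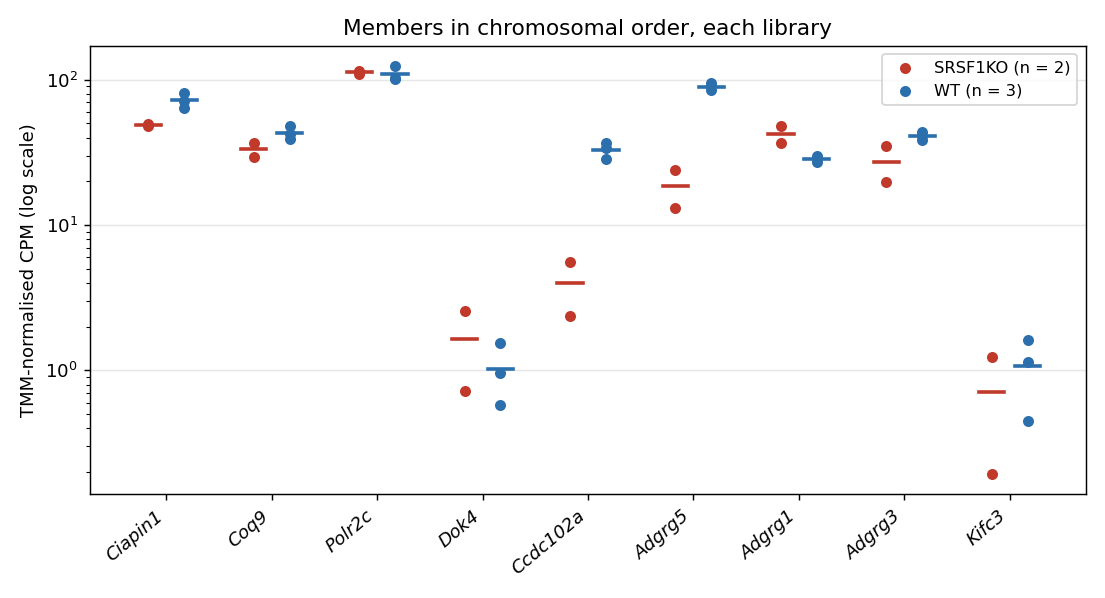
Level of each member in every library, in TMM-normalised CPM on a log scale, with genes in chromosomal order; points are libraries and bars are group means, SRSF1KO left and WT right. Levels compare within a gene, not between genes, since they are not scaled by transcript length. Adgrg5 and Ccdc102a show wide gaps between the groups, Adgrg1 lies higher in SRSF1KO (42.3 against 28.6 CPM), and Polr2c overlaps.

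The other adhesion receptor genes of the cluster were not lower to that extent, and their values differed in direction. Adgrg1 (ENSMUSG00000031785.16, chr8:94974756-95014208), which begins 31462 bases beyond the end of Adgrg5, stood at 47.9 and 36.7 CPM in SRSF1KO replicates 1 and 2, against 29.8, 26.9 and 29.0 CPM in WT replicates 1, 2 and 3. Both SRSF1KO libraries were above all WT libraries. Its log2 fold change of 0.57 ± 0.18 (SE) did not pass over all genes (edgeR, adjusted p = 0.233), nor with DESeq2 (adjusted p = 0.0698).

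Adgrg3 (ENSMUSG00000060470.7, chr8:95017113-95045250), only 2904 bases beyond Adgrg1, stood at 19.7 and 34.7 CPM in SRSF1KO replicates 1 and 2, against 38.5, 41.1 and 43.7 CPM in WT replicates 1, 2 and 3. Both SRSF1KO libraries were below the WT libraries, but replicate 2 by a small margin. The log2 fold change of −0.59 ± 0.25 (SE) did not pass (edgeR, adjusted p = 0.348), and it was −0.24 without SRSF1KO replicate 1 and −1.04 without SRSF1KO replicate 2. Within each library the log2 ratio of Adgrg1 to Adgrg3, which needs no scaling between libraries, was 1.28 and 0.08 in SRSF1KO, against −0.37, −0.61 and −0.59 in WT. The ratio of Adgrg5 to Adgrg3 was −0.60 and −0.53 in SRSF1KO, against 1.22, 1.04 and 1.11 in WT, and that of Adgrg5 to Adgrg1 was −1.88 and −0.61 in SRSF1KO, against 1.59, 1.65 and 1.70 in WT. The annotated lncRNA gene Gm51544 overlaps the end of Adgrg1 and the beginning of Adgrg3, so reads of this stretch cannot be assigned with certainty.

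On the other side of Ccdc102a, the housekeeping genes ranged from overlapping groups to a log2 fold change of −0.56. Polr2c (ENSMUSG00000031783.10, chr8:94857450-94864242) stood at 114.4 and 109.9 CPM in SRSF1KO replicates 1 and 2, against 102.8, 101.3 and 123.5 CPM in WT replicates 1, 2 and 3. The groups overlapped, with a log2 fold change of 0.038 ± 0.13 (SE; edgeR, adjusted p = 0.942).

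Ciapin1 (ENSMUSG00000031781.14, chr8:94819818-94838830) stood at 47.7 and 49.8 CPM in SRSF1KO replicates 1 and 2, against 71.1, 63.9 and 81.3 CPM in WT replicates 1, 2 and 3. All SRSF1KO libraries lay below the WT libraries, and the log2 fold change of −0.56 ± 0.15 (SE) did not pass with edgeR (adjusted p = 0.169) but did with DESeq2 (log2 fold change −0.55 ± 0.17 (SE), adjusted p = 0.0298). Coq9 (ENSMUSG00000031782.15, chr8:94838413-94854895), its divergent partner on the stretch printed above, stood at 36.7 and 29.5 CPM in SRSF1KO replicates 1 and 2, against 42.3, 38.99 and 48.4 CPM in WT replicates 1, 2 and 3. The groups did not overlap, and its log2 fold change of −0.38 ± 0.18 (SE) did not pass (edgeR, adjusted p = 0.395). Ciapin1 and Coq9 overlap by 418 bases in the annotation.

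Dok4 and Kifc3 were near the limit of measurement. Dok4 (ENSMUSG00000040631.8, chr8:94863828-94876312) had 26 and 91 counts in SRSF1KO, against 58, 21 and 37 counts in WT, and it overlaps the far more abundantly counted Polr2c by 415 bases. Kifc3 (ENSMUSG00000031788.14, chr8:95099828-95202826) had 7 and 44 counts in SRSF1KO, against 17, 59 and 44 counts in WT. The groups overlapped for both genes. The log2 fold changes, 0.67 ± 0.83 for Dok4 and −0.59 ± 1.06 for Kifc3 (SE), had errors as large as the values (edgeR, adjusted p = 0.802 and 0.879). Each changed sign without 1 library, Dok4 to −0.48 without SRSF1KO replicate 2 and Kifc3 to 0.20 without SRSF1KO replicate 1.

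Over the 7 neighbours chosen by position, edgeR called 0, limma-voom called 0 and DESeq2 called 1 (Ciapin1), against 0.265%, 0.542% and 6.22% of all genes (by DESeq2, 3.87% lower and 2.34% higher). At an unadjusted p under 0.05 edgeR found 2 lower (Adgrg3, Ciapin1) and 1 higher (Adgrg1), against 8.45% and 5.9% of all genes. The SRSF1KO libraries lay below all WT libraries for 3 of the 7 and above them for 1, against 17.8% and 15.2% of all genes tested. The median log2 fold change was −0.38, beside −0.0063 over all genes tested. It was 0.011 without SRSF1KO replicate 1, −0.48 without SRSF1KO replicate 2, and between −0.39 and −0.16 without 1 of the WT libraries. In a separate edgeR fit over only genes averaging 5 CPM or more, which kept 5 of the 7, it was −0.36. None of these 7 had a log2 fold change as large as those of Adgrg5 and Ccdc102a.

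**Figure D2:**
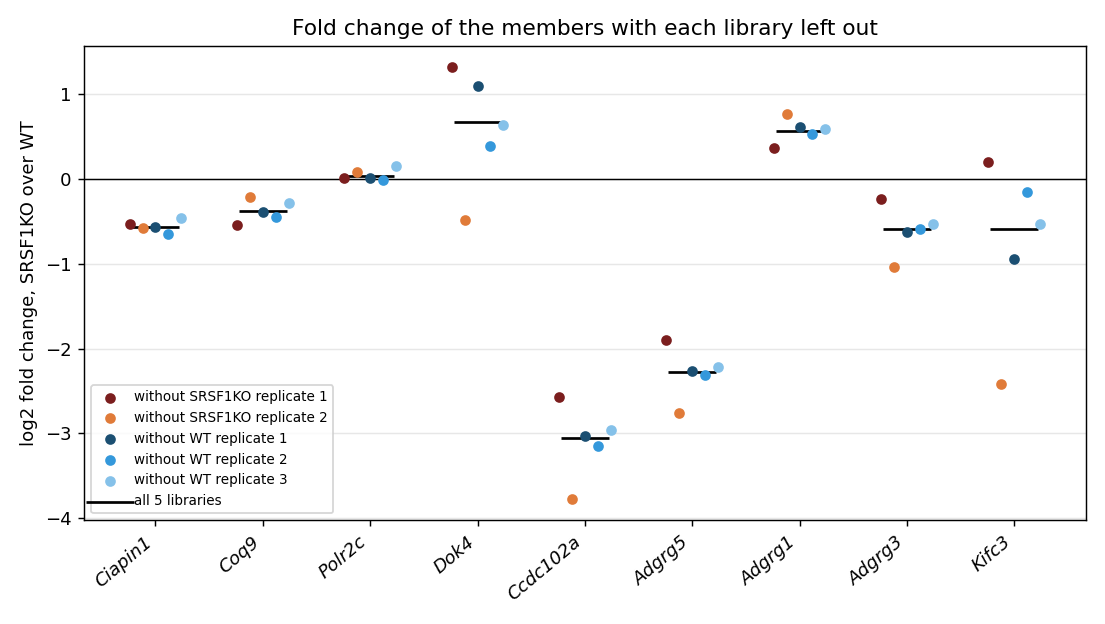
Log2 fold change, SRSF1KO over WT, of each member with all 5 libraries (black bars) and with each library left out (points). Adgrg5 stays between −2.76 and −1.89 and Ccdc102a between −3.77 and −2.57, while Dok4 and Kifc3 cross 0.

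A wider view took in every RefSeq gene within 500 kb of the outer ends of Adgrg5 and Ccdc102a. Of 44 annotated genes, 33 were found in the table and 24 were tested. Leaving aside the 2 at the centre, edgeR called 0 of 22 and limma-voom 0 of 22, while DESeq2 called 4 of 21, all lower, against 3.87% of all genes called lower by that tool. At an unadjusted p under 0.05 edgeR found 5 lower and 1 higher of the 22, against 8.45% and 5.9% of all genes. The groups did not overlap for 7 lower and 3 higher, against 17.8% and 15.2% of all genes. The median log2 fold change of the 22 was −0.084, with 12 negative and 10 positive. It was −0.30 without SRSF1KO replicate 2 and 0.030 without WT replicate 3.

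Among the other genes with a WT mean of 5 CPM or more, the lowest fold changes came from the far end of the window and not from next to Adgrg5 and Ccdc102a. These were Nlrc5 and 9330175E14Rik, with midpoints at −441 and −487.7 kb from the start of Adgrg5. Nlrc5, the transactivator of MHC class I genes (ENSMUSG00000074151.13, chr8:94434335-94527272), stood at 100.5 and 166.9 CPM in SRSF1KO replicates 1 and 2, against 258.6, 256.9 and 260.3 CPM in WT replicates 1, 2 and 3. Both SRSF1KO libraries were below the tightly grouped WT libraries.

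The log2 fold change of Nlrc5 was −0.95 ± 0.20 (SE; edgeR, adjusted p = 0.118), and DESeq2 called it (−0.93 ± 0.19 (SE), adjusted p = 0.000126). It was also called by edgeR when the fit took only genes averaging 5 CPM or more (adjusted p = 0.0147). The lncRNA gene 9330175E14Rik (ENSMUSG00000097194.2, chr8:94433127-94435103), which overlaps the beginning of Nlrc5 by 769 bases, stood at 4.52 and 5.54 CPM in SRSF1KO replicates 1 and 2, against 13.9, 23.7 and 17.4 CPM in WT replicates 1, 2 and 3. Its log2 fold change was −1.87 ± 0.33 (SE; edgeR, adjusted p = 0.0783), and DESeq2 called it too (−1.85 ± 0.34 (SE), adjusted p = 1.06e-05). Reads of the overlap cannot be assigned to one of the 2 genes.

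Between the ends the other genes that are no members were mixed. The chemokine genes had few counts: Ccl22 had 101 and 20 counts in SRSF1KO, against 196, 98 and 153 in WT, and Cx3cl1 had 7 and 87 counts in SRSF1KO, against 29, 25 and 0 in WT. Their log2 fold changes of −1.23 ± 0.74 and 1.43 ± 1.62 (SE) did not pass (edgeR, adjusted p = 0.514 and 0.778), and both rested on single libraries. That of Ccl22 was −2.81 without SRSF1KO replicate 1 and −0.48 without SRSF1KO replicate 2, and that of Cx3cl1 was −1.28 without SRSF1KO replicate 2. Rspry1 at 0.039 ± 0.14 and Arl2bp at −0.12 ± 0.23 (SE), named after their values were seen, had groups that overlapped. Psme3ip1 and Usb1, also named after their values were seen, had groups that did not. Psme3ip1 stood at 83.6 and 102.5 CPM in SRSF1KO, against 77.98, 69.7 and 79.5 CPM in WT (log2 fold change 0.30 ± 0.14 (SE); edgeR, adjusted p = 0.38). Usb1 stood at 36.0 and 40.2 CPM in SRSF1KO, against 45.2, 47.3 and 44.4 CPM in WT (log2 fold change −0.26 ± 0.15 (SE); edgeR, adjusted p = 0.496). Cfap20, at the opposite edge and also named after its value was seen, stood at 42.8 and 53.2 CPM in SRSF1KO, against 68.2, 79.1 and 70.3 CPM in WT (log2 fold change −0.60 ± 0.16 (SE); edgeR, adjusted p = 0.162), and was the remaining gene called by DESeq2 (−0.58 ± 0.17 (SE), adjusted p = 0.0201).

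**Figure D3:**
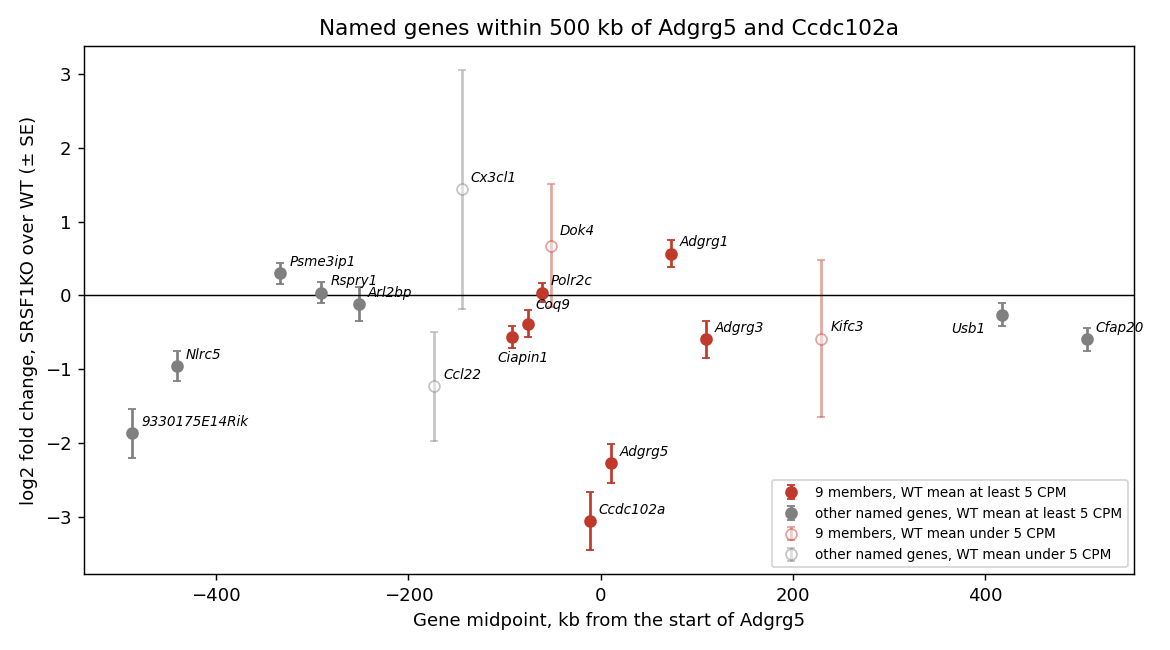
Log2 fold change (SRSF1KO over WT, ± SE) of the members and the other genes named here within 500 kb, against the distance of each gene's midpoint from the start of Adgrg5 in kb; members are red, other genes grey, and open points have a WT mean under 5 CPM. Adgrg5 and Ccdc102a, chosen for their fall, lie at −2.27 ± 0.27 and −3.05 ± 0.39. At the left edge 9330175E14Rik lies at −1.87 ± 0.33, near Adgrg5, and Nlrc5 at −0.95.

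On chromosome 8 as a whole the median log2 fold change over 796 tested genes was −0.0056. Of these 796, edgeR called 5 lower and 1 higher, against 0.213% and 0.0519% of all genes tested. The 5 lower ones include the 2 at the centre, which were chosen for their fall, so nothing is read from these counts. The others called were Tdrp, Il27ra, Cdh3 and Cotl1. Adgrg5 and Ccdc102a were chosen as such a pair, so nothing is read from their place among the following. Over all chromosomes, 3 pairs of called genes were next to each other among the 15204 tested genes with coordinates. The 3712 bases between Ccdc102a and Adgrg5 separate genes that were both lower, with no overlap of their annotated spans. The other pairs were Slfn1 and Slfn4, which moved in opposite directions (log2 fold changes −2.30 and 5.26), and Ifi27l2a and Ifi27, whose annotated spans overlap, at −1.62 and −0.97.

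The family of Adgrg5 was then read as a whole. Of 30 adhesion receptor genes, 17 passed the filter, and 3 had no count in any library. Leaving out Adgrg5, which was chosen for its fall, 16 were tested and edgeR and limma-voom called 0 of them. At an unadjusted p under 0.05 edgeR found 3 of the 16 lower, Adgrg3 among them, and 1 higher, Adgrg1, against 8.45% and 5.9% of all genes. The median log2 fold change of the 16 was −0.21, beside −0.0063 over all genes. Adgra3, which had the smallest p of the 16, had 1 and 0 counts in SRSF1KO, against 44, 22 and 58 in WT (edgeR, adjusted p = 0.154), too few for a useful fold change, and was called by DESeq2. Adgre5, which encodes the leukocyte receptor CD97, stood at 141.7 and 100.03 CPM in SRSF1KO, against 71.6, 103.3 and 104.2 CPM in WT, so its groups overlapped. It was named after its values were seen.

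**Figure D4:**
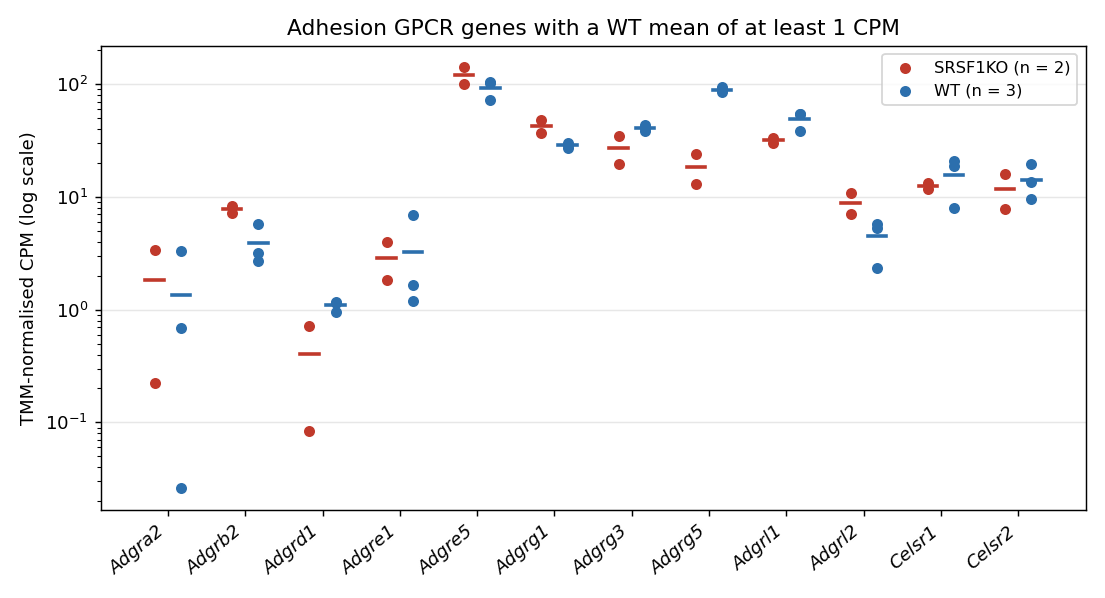
Levels of adhesion receptor genes with a WT mean of at least 1 CPM and counts in every library, in alphabetical order, in TMM-normalised CPM on a log scale; points are libraries and bars group means, SRSF1KO left and WT right. Adgrg5, with SRSF1KO at 13.0 and 24.1 CPM, was chosen for its fall, so nothing is read from the width of its gap. Adgra3, with 1 and 0 counts in SRSF1KO against 44, 22 and 58 in WT, is not drawn.

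Of 12 genes for G proteins, exchange factors and membrane partners of these receptors, 0 were called by edgeR, with 1 lower and 3 higher at an unadjusted p under 0.05 (8.45% and 5.9% of all genes) and a median log2 fold change of 0.089. DESeq2 called 3 of them, Arhgef1 lower and Tgm2 and Cd81 higher, against 3.87% lower and 2.34% higher over all genes. By limma-voom 0 were called, against 0.542% of all genes. Tgm2, a transglutaminase known as a ligand of the human counterpart of Adgrg1, stood at 10.6 and 8.53 CPM in SRSF1KO, against 1.43, 2.61 and 1.35 CPM in WT. The groups were far apart, with a log2 fold change of 2.41 ± 0.44 (SE; edgeR, adjusted p = 0.0877; DESeq2, adjusted p = 0.00015). Arhgef1, a guanine nucleotide exchange factor switched on by G proteins of the G12/13 class, stood at 1121 and 1314 CPM in SRSF1KO, against 1682, 1591 and 1605 CPM in WT. Its log2 fold change was −0.42 ± 0.09 (SE; edgeR, adjusted p = 0.127; DESeq2, adjusted p = 0.00754).

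The complexes and pathways of the other neighbours held 0 genes called by edgeR or limma-voom, and DESeq2 called only Ciapin1. Over all genes edgeR called 0.265%, limma-voom 0.542% and DESeq2 6.22%, so few calls are no result about these lists. The counts at an unadjusted p under 0.05 that follow stand against 8.45% lower and 5.9% higher over all genes. Among 13 RNA polymerase II subunits 3 were lower at an unadjusted p under 0.05 and the median log2 fold change was −0.17. Polr2f at −0.56 ± 0.18 and Polr2e at −0.42 ± 0.14 (SE; edgeR, adjusted p = 0.238 and 0.249) had the smallest p, beside Polr2c at 0.038. Of 13 coenzyme Q synthesis genes 1 was lower at that level, Coq5 at −0.37 ± 0.15 (SE; edgeR, adjusted p = 0.333), with a median of −0.18 beside Coq9 at −0.38. Of 10 genes of cytosolic iron-sulfur assembly, 3 were lower and 1 higher, with a median of −0.15. There Ciapin1 had the smallest p and Ciao3, at 0.54 ± 0.18 (SE; edgeR, adjusted p = 0.242), was the higher one. Of 4 tested DOK adaptor genes 1 was lower, Dok3 at −1.54 ± 0.61 (SE; edgeR, adjusted p = 0.318), and of 4 kinesin-14 motor genes 0 had an unadjusted p under 0.05, with Kifc5b at −0.44 ± 0.39 and Kifc2 at 0.36 ± 0.33 (SE).

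The genes whose pattern over the 5 libraries was most like that of Adgrg5 and Ccdc102a lay elsewhere in the genome. The window held few of the genes compared, so where the nearest profiles lay says little about the neighbourhood. Likeness was the root mean square distance between centred log2(CPM + 1) profiles, over 9932 genes averaging 5 CPM or more, and the 2 genes lay 0.291 apart. Nearest to their mean profile was Nkg7, a cytotoxic granule membrane protein gene, at a distance of 0.189, with 24.97 and 55.2 CPM in SRSF1KO, against 186.6, 165.9 and 177.5 CPM in WT. Slfn1, a Schlafen gene, followed at 0.232, then Apol9b, an apolipoprotein L gene, at 0.275 and Tmie, a membrane protein gene named for the inner ear, at 0.294. Crtam, a surface receptor of activated cytotoxic T cells, lay at 0.338 and Rgs11, a regulator of G protein signalling, at 0.365. All 6 were chosen for this pattern, so their levels carry no test. Of the neighbours, Adgrg3 lay at 0.949 (rank 429), Ciapin1 at 1.02 (rank 703) and Coq9 at 1.13 (rank 1685). Polr2c lay at 1.31 (rank 5395) and Adgrg1 at 1.57 (rank 9322).

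**Figure D5:**
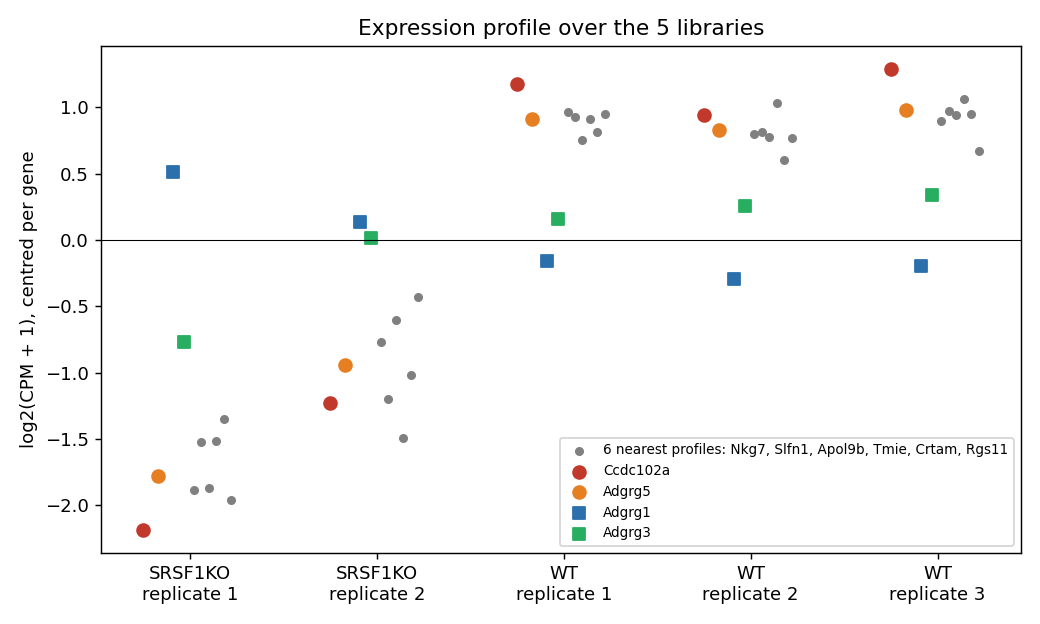
Centred log2(CPM + 1) of Ccdc102a, Adgrg5, Adgrg3 and Adgrg1 and of the 6 genes with the nearest profiles (grey) in each library. SRSF1KO replicate 1 lies lower than replicate 2 for Ccdc102a, Adgrg5 and Adgrg3, and higher for Adgrg1.

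Several features of the libraries moved beside these values. SRSF1KO replicate 1, with the lower Adgrg5 and Ccdc102a, had more remaining Srsf1 than replicate 2. More than 1000 counts of the Y-linked gene Ddx3y marked SRSF1KO replicate 1 and WT replicate 2 as the male pattern. The difference in log2(CPM + 1) for Adgrg5 was −1.89 between libraries of the female pattern and −2.61 between those of the male pattern. It was −2.46 and −3.13 for Ccdc102a, 0.31 and 0.81 for Adgrg1, and −0.23 and −1.02 for Adgrg3. The added 1 CPM shrinks differences at low levels, so these values are not on the scale of the edgeR log2 fold changes. With a term for this pattern edgeR called 5 of all genes and 0 members.

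The gate genes Cd4, Cd8a, Cd8b1, Cd69, Cd24a, Trbc1, Trbc2, Trac and Cd3e were detected in all libraries, and edgeR called 0 of these 9 (1 lower and 1 higher at an unadjusted p under 0.05), while DESeq2 called Cd4 higher. For this and the following marker lists, edgeR had 8.45% of all genes lower and 5.9% higher at an unadjusted p under 0.05. DESeq2 called 3.87% of all genes lower and 2.34% higher. All 9 markers of NK and cytotoxic cells were detected in some library and 7 were tested. edgeR called 0 (2 lower and 1 higher at an unadjusted p under 0.05), DESeq2 called Nkg7 and Klrd1 lower, and limma-voom called Nkg7. Their summed level was 102.0 and 117.3 CPM of the library total in SRSF1KO and 226.6 to 261.9 in WT. Without Nkg7 the sum was 77.1 and 62.6 in SRSF1KO and 61.1 to 71.7 in WT, a sum in which members differ in direction, given after the values were seen. Gzma, the largest part of it, stood at 43.8 and 33.9 CPM in SRSF1KO, against 19.7, 25.5 and 27.5 CPM in WT. Klrd1 stood at 2.80 and 1.06 CPM in SRSF1KO, against 6.92, 7.25 and 6.86 CPM in WT, with no overlap, and Prf1 at 13.0 and 15.2 CPM in SRSF1KO, against 37.5, 14.8 and 21.9 CPM in WT, with overlap. These 3 were named after their values were seen. The defining genes Ncr1 and Eomes had at most 14 and 17 counts in any library. Erythroid markers moved with the groups, at 89.8 and 19.5 in SRSF1KO and 2.31 to 11.7 in WT, with 3 of 4 tested genes higher at an unadjusted p under 0.05, 0 called by edgeR and 1 by DESeq2 (Hbb-bt). The 5 eosinophil markers summed to at most 1.25 in any library. Sums of B cell (48.9 and 45.5 in SRSF1KO, 30.5 to 49.8 in WT), myeloid (76.2 and 86.1, against 67.4 to 78.8), γδ T cell (101.5 and 88.5, against 51.4 to 84.8), dendritic cell (8.36 and 10.7, against 6.75 to 9.54) and thymic epithelial markers (25.5 and 13.7, against 14.2 to 14.4) had 0 genes called by edgeR or limma-voom. DESeq2 called Elane (myeloid) and Trdc (γδ T cell) higher and Xcr1 (dendritic) lower. At an unadjusted p under 0.05 edgeR had 0 B cell, 1 myeloid, 1 γδ T cell, 2 dendritic and 0 thymic epithelial genes. Whether any of these bears on the values of the members was not tested.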

How the data were processed

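Gene expression was measured by RNA-seq in 2 SRSF1KO and 3 WT samples of sorted thymocytes. The values deposited by the authors are raw, unnormalised counts, whole numbers for 53715 Ensembl IDs. Tools listed, without roles, in the submitters' processing notes are HTSeq 0.6.1, DESeq2 1.20.0, Bowtie2 2.1.0, HOMER 4.9.1, FastQC 0.11.5, Trim Galore and cutadapt 1.17, and the build is mm10. For RNA-seq the aligner, annotation release and strand setting were not stated there. CLIP-seq samples (4) were not analysed here. Libraries held 36026006 to 38985285 counts. All pairs of libraries differed beyond sampling noise (chi-square per degree of freedom 40.1 to 116.6).

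IDs were matched to symbols (53620 matched) and to RefSeq coordinates of GRCm38.p6, the same assembly as mm10 (87.6% of tested genes). Differential expression used edgeR 4.0.16 in R 4.3.3 (TMM, filterByExpr, robust glmQLFit, glmQLFTest), with the group as only term and Benjamini-Hochberg adjustment over 17351 genes. Tests were two-sided, and a call means an adjusted p under 0.05. The standard error is the log2 fold change over the root of F. Alternatives were DESeq2's size factors, upper quartile scaling, no low-count filter, a mean of at least 5 CPM, DESeq2 1.42.0, limma-voom (limma 3.58.1), a replicate block, a term for sex-linked pattern, and each library left out. A lone remaining SRSF1KO library is assumed to vary like WT. Named genes are all members and Srsf1, called genes and the 6 largest changes of the window, called genes and the 2 smallest p of each family list, the 6 nearest profiles and adjacent called pairs. The members, lists and rules were chosen with earlier results of these data known.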

Additional observations from a re-analysis of the deposited data

How the results depend on the processing

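The direction of Adgrg5, Ccdc102a, Adgrg1, Adgrg3, Coq9, Ciapin1, Nlrc5 and 9330175E14Rik held under all 13 alternatives. Of 305 values of single named genes under the alternatives, 6 changed sign: Cx3cl1 to −0.0068 with the replicate block and −1.28 without SRSF1KO replicate 2, Kifc3 to 0.20 and Kifc2 to −0.255 without SRSF1KO replicate 1, Dok4 to −0.48 without SRSF1KO replicate 2, and Polr2c to −0.014 without WT replicate 2. With each library left out in turn Cx3cl1 lay between −1.28 and 2.32, Kifc3 between −2.42 and 0.20, Kifc2 between −0.255 and 0.81, Dok4 between −0.48 and 1.31, and Polr2c between −0.014 and 0.15. Cx3cl1, Kifc3 and Dok4 had under 100 counts in every library.

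Counts of calls depended on the test. Against 46 genes over all, 10 were called with DESeq2's size factors, 544 without the low-count filter, 376 at a mean of at least 5 CPM, 1016 with DESeq2, 94 with limma-voom and 5 with the sex pattern term. Of the 9 members 0 were called with DESeq2's size factors and 0 with the sex pattern term, against 2. The calls in the window of 500 kb that follow include Adgrg5 and Ccdc102a. Against 2, edgeR called 0 with DESeq2's size factors and 0 with the sex pattern term. It called 4 without the filter and 4 over genes averaging 5 CPM or more, and DESeq2 called 6. Of the other family genes, against 0, 2 were called without the filter, 1 at a mean of at least 5 CPM and 4 by DESeq2. These window and family counts stand beside the calls over all genes given for each setting above. The window's median of −0.19 was −0.36 at a mean of at least 5 CPM, −0.32 with limma-voom, −0.27 with the sex pattern term, −0.25 within 250 kb and −0.084 within 1 Mb. The cause was not tested. The window medians, and the calls among members and window, include Adgrg5 and Ccdc102a here and in the next 2 paragraphs. Both genes were chosen for their fall, so these values do not describe the surroundings alone. Without these 2 genes the median of the window of 500 kb was −0.084 with all libraries. With 1 library left out it lay between −0.30 and 0.030, and it was positive only without WT replicate 3.

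Leaving out 1 library gave 0 to 88 calls over all genes, 0 to 2 among the members and 0 to 3 in the window of 500 kb, whose median lay between −0.40 and −0.084. Without SRSF1KO replicate 1, which left 11 calls, Adgrg5 was called and Ccdc102a was not.

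With the replicate number as a block edgeR called 0 genes over all, 0 members and 0 of the window (1640 genes at an unadjusted p under 0.05), with a window median of −0.29 and log2 fold changes of −2.30 for Adgrg5 and −3.08 for Ccdc102a. Deviations of same-numbered libraries correlated across genes at −0.021 and 0.045, and the labels do not say that a number marks a shared animal or day. Only 2 and 3 libraries a group, and low counts for Dok4 and Kifc3, limit what could be detected.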
